A study of Homo sapiens with 3 samples.

Results

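The NF-κB genes described here are 10 named rows of the count table, taken by symbol from a table of 51136 genes: the subunits NFKB1, NFKB2, RELA and RELB, the inhibitors NFKBIA and NFKBIE, the feedback and survival genes TNFAIP3 and BIRC3, and the target genes TNFAIP2 and ICAM1. They were chosen by name and role, with earlier results of these data known. The samples were 3 RNA-seq libraries of the human pancreatic cancer line PANC-1, grown in medium with serum. The control library came from cells with no agent, and the labels name no vehicle. The Rg3 library came from cells given 200 μM Ginsenoside Rg3, a saponin of ginseng, for 24 h, and the TAM library from cells given 50 μM tamoxifen, an antiestrogen that is also known to inhibit protein kinase C, for 24 h. The question was how the expression profile of these cancer cells changed with either agent. With 1 library per condition no difference below has a replicate check, and each interval and test covers counting error between libraries only. In such bulk RNA, fewer cells with a transcript and less of it per cell cannot be told apart.

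NF-κB is a family of dimeric transcription factors that rest in the cytoplasm bound to IκB proteins. Signals from TNF, interleukin-1 and related receptors activate the IκB kinase, IκB is degraded, and the dimers enter the nucleus, where they bind κB sites and switch on inflammatory, adhesion and survival genes. Among those targets are the genes of their own inhibitors, so that each round of activity is followed by new IκB and A20 that shut it down. In pancreatic cancer cells the pathway is often active without an outside signal.

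Promoter windows are shown for the members that were called higher or lower with TAM, by limits given below, and whose windows hold the κB consensus. The letters NF-κB is known to bind can thus be read beside the counts. The windows run 5′ to 3′ on the gene's strand, from 250 bases before to 50 bases after the RefSeq start (GRCh38.p14), and capitals mark matches to the κB consensus on either strand. The windows lie at chr14:35404700-35404999 (minus strand), chr6:137867009-137867308 (plus strand) and chr11:102317234-102317533 (plus strand).
NFKBIA: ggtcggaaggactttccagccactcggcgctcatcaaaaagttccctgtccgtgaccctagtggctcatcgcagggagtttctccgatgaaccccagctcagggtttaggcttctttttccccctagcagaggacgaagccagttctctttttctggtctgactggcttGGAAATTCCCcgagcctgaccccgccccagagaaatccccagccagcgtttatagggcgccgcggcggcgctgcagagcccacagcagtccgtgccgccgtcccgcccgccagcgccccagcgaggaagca
TNFAIP3: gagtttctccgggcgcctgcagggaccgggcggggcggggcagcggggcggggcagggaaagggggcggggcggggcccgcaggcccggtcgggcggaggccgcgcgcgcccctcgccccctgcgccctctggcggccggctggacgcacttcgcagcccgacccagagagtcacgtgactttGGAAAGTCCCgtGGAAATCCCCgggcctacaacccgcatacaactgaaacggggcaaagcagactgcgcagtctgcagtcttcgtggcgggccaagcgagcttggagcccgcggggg
BIRC3: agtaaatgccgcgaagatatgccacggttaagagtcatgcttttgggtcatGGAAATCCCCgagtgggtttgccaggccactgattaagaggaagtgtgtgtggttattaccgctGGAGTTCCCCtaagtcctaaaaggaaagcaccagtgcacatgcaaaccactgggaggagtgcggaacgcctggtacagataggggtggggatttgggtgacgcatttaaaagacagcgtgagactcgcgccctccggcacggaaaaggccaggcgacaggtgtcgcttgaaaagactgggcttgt
NFKBIA held 1 match, GGGAATTTCC read on the opposite strand, at positions -81 to -72 from the start. TNFAIP3 held 2, GGGACTTTCC and GGGGATTTCC, at -67 to -58 and at -55 to -46, both on the opposite strand. BIRC3 held GGGGATTTCC at -199 to -190 and GGGGAACTCC at -135 to -126, also on the opposite strand. Of the other members, NFKB1 held GGGAATTTCC at -49 to -40 in 1 of its 2 windows, the same letters as in NFKBIA. NFKB2 held 4 and 3 matches in 2 of its 3 windows, counting each strand of a site that reads as the consensus both ways, and 0 in the other. The consensus searched was GGG, then A or G, any 2 bases, 2 bases that are each C or T, and CC. No exact match to it stood in the windows of RELA, TNFAIP2 and ICAM1. The ICAM1 window holds TGGAAATTCC, which departs from the consensus only at its opening letter. Near matches were not searched, so that a window without an exact match may still hold a κB site. RELB and NFKBIE were not matched in the table of promoters. In all, 8 members were matched and 5 of them held the consensus, in 6 of their 12 windows, against 11.3% of 35116 promoter windows of the same length. Taken as the first listed window of each gene, the share was 13.3% of 10096 genes with at least 10 counts in a library. The 5 members above were counted by a match in any of their windows, so that these figures are not alike. The first window of NFKB2 held 0. Since the members were chosen as NF-κB genes and targets, a high share follows from the choice and tests nothing. A match describes the sequence and does not show that a factor was bound.

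Library totals were 11300766 counts for control, 12861693 for Rg3 and 11321442 for TAM, and a count of 0 would allow up to 0.26, 0.21 and 0.30 CPM, a count scaled to library size. All 10 members had at least 31 counts in every library, so that all passed the filter of 10 counts in either library. Levels below are TMM-scaled CPM, where TMM is a scaling that centres most genes on no change, and a gene was called higher or lower when its fold passed 1.5 or 0.67 with an adjusted p under 0.05 in the exact two-sided binomial test on its reads. Relative to plain library totals, this scaling moved every log2 fold change by -0.14 for Rg3 and by 0.21 for TAM. Fold changes also followed base composition. Across the 11693 genes that reached 50 counts, Spearman's rho between GC content and the log2 fold change was -0.81 with Rg3, and it was 0.51 across 11118 genes with TAM, with a rho of -0.45 for transcript length there. Values from which a smooth GC and length trend was taken out are therefore given beside the scaled ones. Calls on these values set the new fold against the limits but keep the test of the unadjusted reads, which does not test the new fold. The 6 markers of a ductal carcinoma line were counted in each library and summed to 7208, 3848 and 7049 CPM in control, Rg3 and TAM. Most of their counts were of VIM, at 55276, 39783 and 42048, so that the sums mostly follow that gene. KRT18 had 7406 counts or more, KRT19 had 665, 290 and 181, and EPCAM had 8 to 26. The 7 blood cell markers summed to 8.45, 3.20 and 3.92, with all but CD14 at 1 count or fewer, and of the 4 endothelial markers only KDR, with 49 to 54 counts, exceeded 1 count. The 4 acinar markers were at 0.

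**Figure D1:**
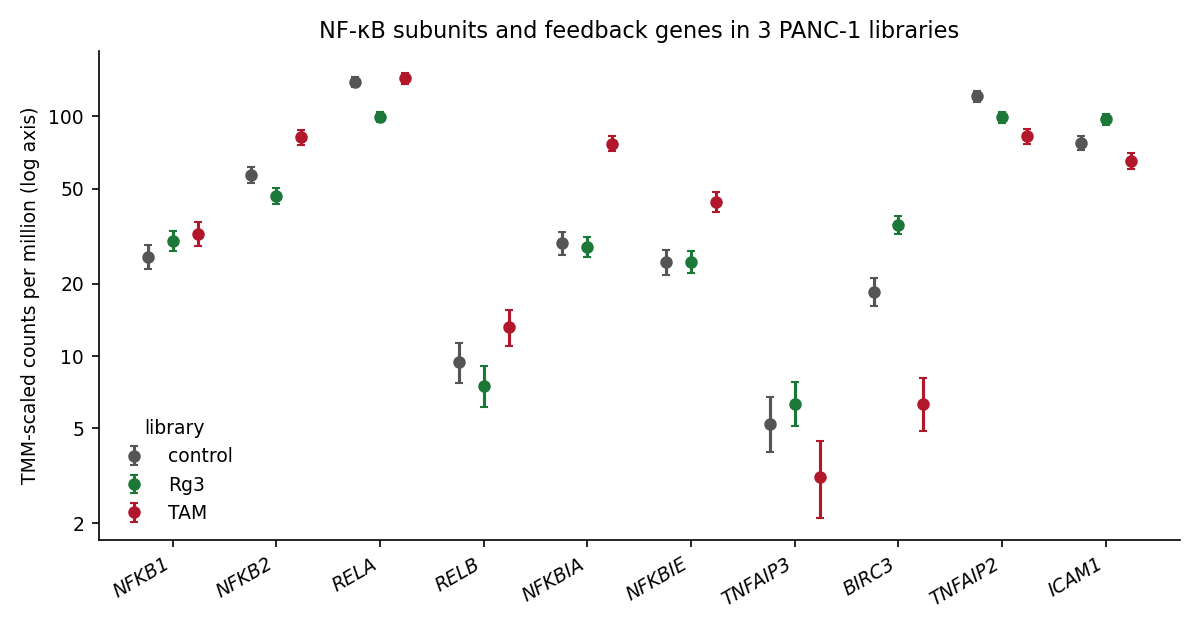
Levels of the 10 NF-κB genes in the control, Rg3 and TAM libraries, as TMM-scaled CPM on a log axis, where bars are exact 95% Poisson intervals of counting error. NFKBIA and NFKBIE stand highest with TAM, at 77.0 and 44.0, while BIRC3 runs from 6.33 with TAM over 18.6 in control to 35.3 with Rg3.

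In the TAM library both IκB genes rose while TNFAIP3 and BIRC3 fell. NFKBIA rose 2.61-fold and NFKBIE 1.79-fold, BIRC3 fell to 0.34 of the control level and TNFAIP3 to 0.60. Thus 2 of the 10 members were called higher and 2 lower with TAM, where 14.0% of all 16079 genes compared were called higher and 18.4% lower. Once the GC and length trend was taken out, 1 member was higher and 4 were lower, where 8.24% of the 14227 genes with a GC value were higher and 10.8% lower. With library totals 2 members were higher and 3 lower, beside 6.97% and 26.9% of all genes. In the Rg3 library 1 member, BIRC3, was called higher at 1.90-fold and 0 were lower, where 20.5% of 16487 genes were called higher and 15.8% lower. Without the trend that call was lost, and ICAM1 was the 1 member higher, beside 5.16% of genes higher and 6.31% lower. With library totals BIRC3 was again the 1 member higher, beside 26.5% higher and 10.6% lower. Under TMM scaling, calls of 1 or 2 members among 10 are near these shares. With an assumed biological variation of 0.4 in edgeR's exact test, 0 members were called in either comparison, and with 0.2 only NFKBIA and BIRC3 with TAM were. The share of all genes called at these variations was not computed. The median log2 fold change of the members was -0.02 with Rg3 and 0.19 with TAM, against 0.04 and -0.02 over all genes compared. Without the trend the members' medians were 0.29 and -0.18, so that the sign turned in both.

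The subunits came first in the order of roles. RELA encodes p65, the main transactivating subunit, which pairs with p50 in the canonical dimer. It lies at chr11:65653596-65663094 (GRCh38, here and below) and had 1594 counts in control, 1432 with Rg3 and 1435 with TAM, or 138.8, 99.5 and 144.2 CPM. The Rg3 library was the low one. The log2 fold change was -0.48 with Rg3 (95% interval -0.59 to -0.38), short of the fold limit, and 0.05 with TAM (-0.05 to 0.16). Without the trend these were -0.02 and -0.28, and with library totals the TAM value was -0.15, so that the sign with TAM depends on the scaling.

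NFKB1 encodes p105, the precursor of p50, and lies at chr4:102501329-102617302. Its counts were 298, 436 and 322 in control, Rg3 and TAM, or 26.0, 30.3 and 32.4 CPM. The counting intervals of the 3 levels all overlapped. The log2 fold change was 0.22 with Rg3 (0.0065 to 0.44) and 0.32 with TAM (0.09 to 0.55), neither called, and it stayed at 0.27 and 0.35 without the trend.

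NFKB2 encodes p100, the precursor of p52, which both inhibits and, once processed, forms dimers with RELB in the non-canonical pathway. At chr10:102394110-102402529, it had 652 counts in control, 672 with Rg3 and 813 with TAM, or 56.8, 46.7 and 81.7 CPM. The 3 levels were separate, with TAM high and Rg3 low. The log2 fold change was -0.28 with Rg3 (-0.44 to -0.13) and 0.52 with TAM (0.37 to 0.68), both within the fold limits. Without the trend it was 0.33 with Rg3, of the other sign, and 0.11 with TAM.

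RELB, the partner of p52, lies at chr19:45001430-45038198 and had 108, 108 and 131 counts, or 9.41, 7.50 and 13.2 CPM. Its fold changes resembled those of NFKB2 at a lower level. The log2 fold change was -0.33 with Rg3 (-0.73 to 0.07) and 0.48 with TAM (0.11 to 0.87), neither called, and 0.37 and -0.09 without the trend, each of the other sign. REL, the fifth subunit gene, which was in a list of pathway genes, had 68 counts in control, 97 with Rg3 and 10 with TAM. It fell with TAM by 2.56 on the log2 scale (-3.68 to -1.59), and its value without the trend was -1.52.

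NFKBIA encodes IκBα, the inhibitor that is degraded first and made anew as a target of NF-κB. The gene lies at chr14:35401511-35404749. It had 339 counts in control, 410 with Rg3 and 766 with TAM, or 29.5, 28.5 and 77.0 CPM. The control and Rg3 intervals overlapped, and the TAM library was far above both. With TAM it rose by 1.38 on the log2 scale (1.20 to 1.57, adjusted p = 8.22e-52, exact binomial test), above 97.7% of all genes compared. The rise was 1.17 with library totals and 1.05 without the trend, and the gene was called higher under each. With Rg3 the log2 fold change was -0.05 (-0.26 to 0.16), and it was 0.09 with library totals and 0.24 without the trend.

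NFKBIE encodes IκBε, a slower inhibitor of the same family. It lies at chr6:44258166-44265788 and had 283, 357 and 438 counts in control, Rg3 and TAM, or 24.7, 24.8 and 44.0 CPM. As for NFKBIA, control and Rg3 overlapped and TAM was high. With TAM it rose by 0.84 (0.62 to 1.06, adjusted p = 8.76e-14, exact binomial test) and by 0.63 with library totals. The trend itself stood at 0.49 for a transcript of its GC content and length, and without it the value was 0.35 and no longer called. With Rg3 the log2 fold change was 0.01 (-0.22 to 0.24), and 0.61 without the trend. That last value passes the fold limit and was not called, because the test stayed that of the unadjusted reads (adjusted p = 0.99, exact binomial test). That test does not bear on the value of 0.61.

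TNFAIP3 encodes A20, the ubiquitin-editing enzyme that ends signalling upstream of the IκB kinase. At chr6:137867188-137883312, it was the least counted member, with 60 counts in control, 91 with Rg3 and 31 with TAM, or 5.23, 6.32 and 3.12 CPM. The intervals of control and Rg3 overlapped, and those of control and TAM overlapped as well. With TAM it fell by 0.75 (-1.42 to -0.10, adjusted p = 0.038, exact binomial test), by 0.96 with library totals and by 0.61 without the trend. When genes with at least 1 count entered the adjustment, its adjusted p in the exact binomial test was 0.058 and the call was lost. With Rg3 the log2 fold change was 0.27 (-0.21 to 0.77) and 0.28 without the trend.

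BIRC3 encodes cIAP2, a ubiquitin ligase that blocks cell death and joins the TNF receptor complex. It lies at chr11:102317450-102339403 and had 213 counts in control, 508 with Rg3 and 63 with TAM, or 18.6, 35.3 and 6.33 CPM. The 3 levels were apart, and BIRC3 was the only member called in opposite directions against the shared control library. With Rg3 it rose by 0.93 (0.69 to 1.16, adjusted p = 2.31e-15, exact binomial test), and with TAM it fell by 1.55 (-1.98 to -1.14, adjusted p = 5.15e-15, exact binomial test). Its transcript has 34.8% GC, the lowest of the members, which otherwise range from 49.5% to 65.4%. The trend alone stood at 0.92 with Rg3 for such a transcript, which left 0.0025 for BIRC3. With TAM the trend stood at -0.76 and left -0.79, still called lower. BIRC2, the paralog that encodes cIAP1, shares 0.214% of the 50-base stretches of BIRC3. It had 391, 804 and 215 counts and moved the same way, by 0.71 with Rg3 and by -0.66 with TAM, both called, and by -0.08 and -0.09 without the trend.

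**Figure D2:**
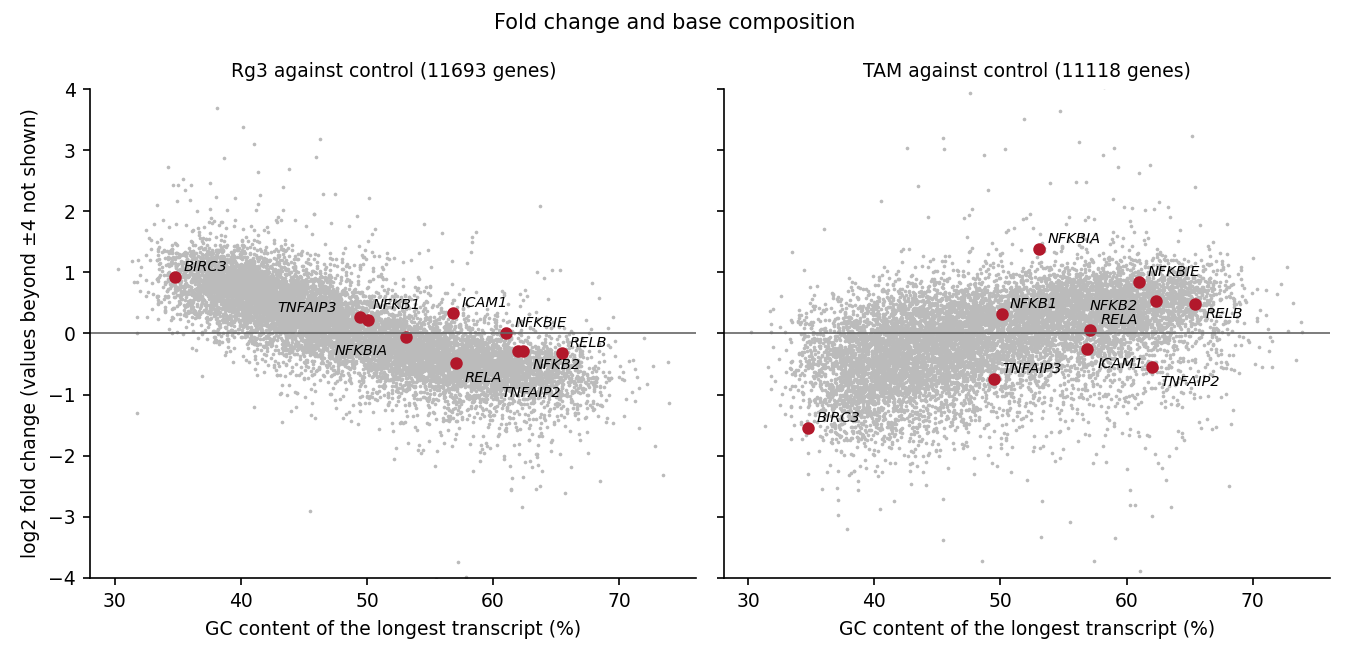
Log2 fold change against GC content of the longest transcript, for genes that reached 50 counts in 1 of the libraries compared (grey points, 11693 with Rg3 and 11118 with TAM) and the NF-κB genes (red). With Rg3, BIRC3 lies inside the grey band at 34.8% GC and ICAM1 at its upper edge, and with TAM NFKBIA lies at the upper edge while TNFAIP2 lies toward the lower one.

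TNFAIP2, a TNF-induced gene that encodes a protein of membrane nanotubes, lies at chr14:103123442-103137439. It had 1392 counts in control, 1429 with Rg3 and 821 with TAM, or 121.2, 99.2 and 82.5 CPM. The 3 levels were separate and TAM was the lowest. The log2 fold change with TAM was -0.56 (-0.68 to -0.43), a fold of 0.68 that narrowly missed the limit of 0.67, so that it was not called. It was -0.76 with library totals and -0.81 without the trend, and was called lower under both. With Rg3 it was -0.29 (-0.40 to -0.18), and 0.31 without the trend.

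ICAM1 encodes the adhesion molecule that binds leukocyte integrins and is a classical NF-κB target. The gene lies at chr19:10270835-10286615 and had 890 counts in control, 1404 with Rg3 and 647 with TAM, or 77.5, 97.5 and 65.0 CPM. The 3 levels were separate, with Rg3 high and TAM low. The log2 fold change was 0.33 with Rg3 (0.21 to 0.45) and -0.25 with TAM (-0.40 to -0.11), neither past the fold limits. Without the trend these values were 0.79 and -0.58, and both were called. Exons of an annotated transcript on the opposite strand, AC011511.5, cover 22.0% of the exon bases of ICAM1, and whether the counting used strand was not given, so that reads of these genes cannot be told apart.

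**Figure D3:**
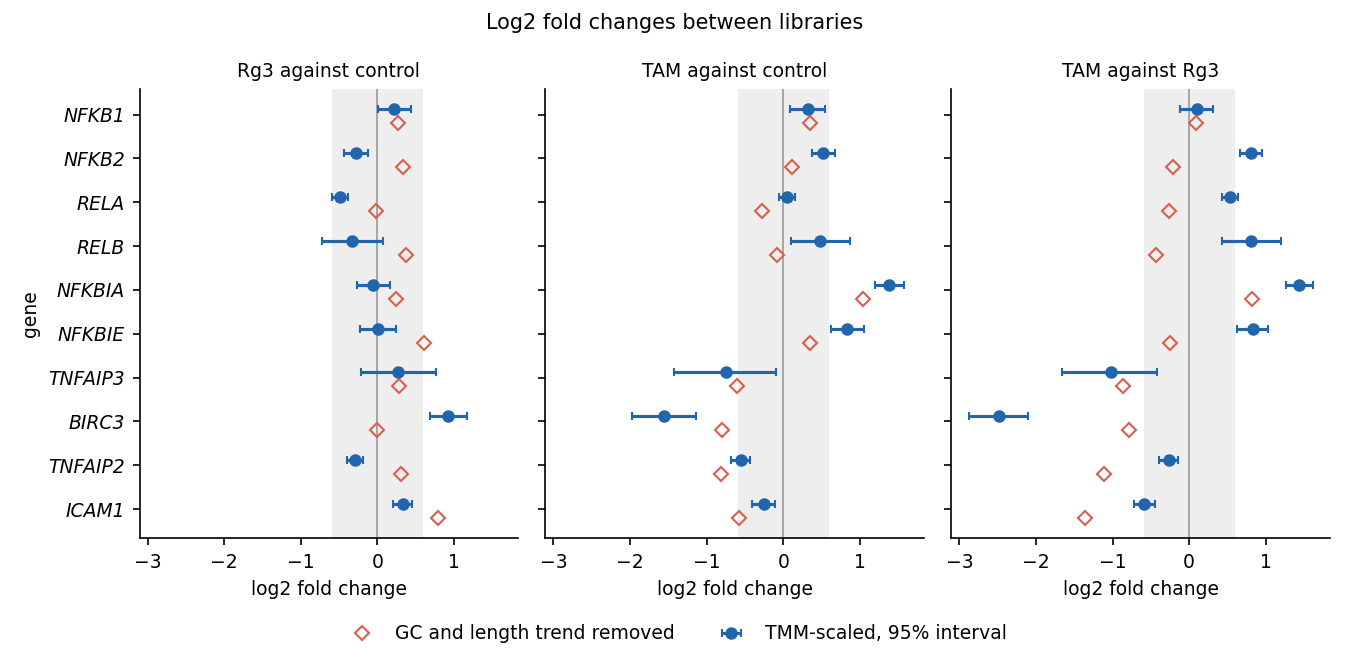
Log2 fold changes of the 10 NF-κB genes for Rg3 against control, TAM against control and TAM against Rg3. Blue points are TMM-scaled with exact 95% counting intervals, open diamonds have the GC and length trend taken out, and the grey band holds folds from 0.67 to 1.5. NFKBIA is right of the band with TAM in both forms, and BIRC3 with Rg3 moves from 0.93 to 0.0025.

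Divided by the length of the longest transcript in kilobases, the scaled levels also shifted in order. In control, RELA led with 43.6, followed by TNFAIP2 (25.9), ICAM1 (23.8), NFKBIA (19.0), NFKB2 (16.6), NFKBIE (9.55), NFKB1 (6.35), RELB (4.10), BIRC3 (3.57) and TNFAIP3 (1.10). The counting intervals of TNFAIP2 and ICAM1 overlapped, as did those of NFKBIA and NFKB2 and those of RELB and BIRC3. With TAM, NFKBIA reached 49.4 and RELA 45.3, with overlapping intervals, the inhibitor beside the subunit it binds. With Rg3, ICAM1 (29.98) stood beside RELA (31.2), again with overlapping intervals, and BIRC3 (6.79) stood above RELB (3.27). These levels keep the GC and length trend, which stood with Rg3 at 0.92 for BIRC3 and at -0.70 for RELB. Without it their log2 fold changes with Rg3 were 0.0025 and 0.37, so that the change in their order goes with the trend. TNFAIP3 was the lowest per length in all 3 libraries.

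Ratios of counts within a library do not depend on the scaling between libraries, and members of like GC content share nearly the same GC trend. Pairs within 2 points of GC content were therefore compared, a choice made after the values were seen. NFKBIE had 0.20 counts per TNFAIP2 count in control (0.18 to 0.23), 0.25 with Rg3 (0.22 to 0.28) and 0.53 with TAM (0.47 to 0.60). NFKB2 had 0.47 counts per TNFAIP2 count in control (0.43 to 0.51) and in the Rg3 library (0.43 to 0.52), and 0.99 with TAM (0.90 to 1.09). In both ratios the TAM library was above the others with no overlap of the intervals.

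RELA had 1.79 counts per ICAM1 count in control (1.65 to 1.95), 1.02 with Rg3 (0.95 to 1.10) and 2.22 with TAM (2.02 to 2.44). Here the Rg3 library was low and the TAM library high, and the 3 intervals did not overlap. NFKB1 had 4.97 counts per TNFAIP3 count in control (3.75 to 6.67), 4.79 with Rg3 (3.81 to 6.07) and 10.4 with TAM (7.17 to 15.5), so that the TAM library stood apart. NFKB2 had 2.30 counts per NFKBIE count in control (2.00 to 2.66), 1.88 with Rg3 (1.65 to 2.15) and 1.86 with TAM (1.65 to 2.09), and these intervals overlapped. Such ratios show that the genes of a pair changed unequally and not which of them changed. The transcripts of a pair differ in length, most in NFKBIE and TNFAIP2 (2581 and 4683 bases). With TAM the trend on GC content and length together stood at 0.49 for NFKBIE, 0.41 for NFKB2 and 0.26 for TNFAIP2. The 2 ratios to TNFAIP2 thus keep a part of that trend, and the part of length alone was not tested.

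**Figure D4:**
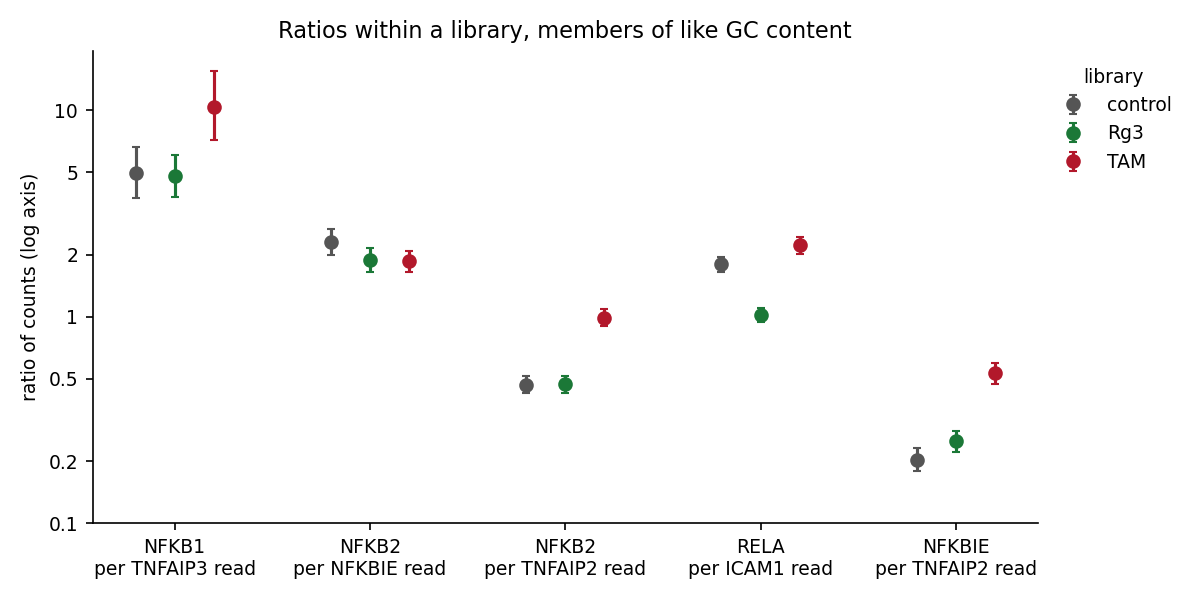
Ratios of counts within each library for the 5 pairs of members within 2 points of GC content, on a log axis with exact 95% intervals of counting error. The TAM library is above the others for NFKB1 per TNFAIP3, NFKB2 per TNFAIP2 and NFKBIE per TNFAIP2, and the Rg3 library is lowest for RELA per ICAM1.

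Set directly against the Rg3 library, the TAM library was higher for 4 members and lower for 3. The doses of the agents differ, at 200 and 50 μM, so that the comparison is between these libraries and not between the agents at 1 dose. NFKBIA was higher by 1.43 on the log2 scale (1.26 to 1.61), NFKBIE by 0.83 (0.62 to 1.03), RELB by 0.81 (0.43 to 1.19) and NFKB2 by 0.81 (0.66 to 0.96). BIRC3 fell by 2.48 (-2.88 to -2.10), TNFAIP3 by 1.02 (-1.66 to -0.42) and ICAM1 by 0.58 (-0.72 to -0.45), at a fold of 0.667 that just passed the limit. Of all 16493 genes compared, 27.0% were called higher and 31.0% lower. TMM stood 0.35 above library totals in this comparison, and with library totals 1 member was higher and 4 lower, beside 16.5% and 41.0% of all genes. Without the trend the members' counts were again 1 and 4, beside 14.3% and 13.7% of the 14497 genes with a GC value. NFKBIA was higher under both, and BIRC3, TNFAIP3, TNFAIP2 and ICAM1 were lower under both.

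The wider pathway, compared with the same control library, was described by lists of 115 other genes, of which 91 were compared for Rg3 and 92 for TAM. In the Rg3 library 18 of them were called higher and 21 lower, and 24 and 12 with library totals. In the TAM library 25 were higher and 21 lower, and 18 and 24 with library totals. All genes shifted the same way with the scaling, from 3377 higher and 2606 lower to 4367 and 1749 with Rg3, and from 2250 and 2965 to 1120 and 4325 with TAM. Without the GC and length trend the counts were 3 and 5 with Rg3 and 17 and 12 with TAM. Of all genes with a GC value, 5.16% were then higher and 6.31% lower with Rg3, and 8.24% and 10.8% with TAM. Under TMM the shares of all genes were 20.5% and 15.8% with Rg3, and 14.0% and 18.4% with TAM. The counts of each list below are to be read beside these shares. The median log2 fold change of the lists together was -0.22 with Rg3 and 0.27 with TAM, and -0.03 and 0.04 without the trend.

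Of the 5 other genes listed as IκB or IκB-like, 0 were higher and 1 was lower with Rg3, and 1 was higher and 0 were lower with TAM. BCL3, a nuclear IκB protein, fell by 1.11 with Rg3 (-1.42 to -0.81), from 246 to 143 counts, and its value without the trend was -0.36. NFKBIL1, which is only IκB-like by its name, rose by 1.20 with TAM (0.93 to 1.47), from 173 to 344 counts, and by 0.62 without the trend. NFKBIB, which encodes IκBβ, had 2319, 1961 and 2694 counts and log2 fold changes of -0.57 with Rg3 and 0.42 with TAM, neither called. The median of these 5 genes was -0.54 with Rg3 and 0.53 with TAM, and 0.01 and -0.05 without the trend.

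Of 11 genes of the IκB kinase complex and the kinases above it, 5 were higher and 2 lower with Rg3, and 1 was higher and 5 lower with TAM. CHUK, which encodes the kinase IKKα, rose by 1.30 with Rg3 (1.04 to 1.56), and TBK1, an IKK-related kinase, rose by 1.29 (1.02 to 1.58). MAP3K14, the kinase NIK of the non-canonical pathway, fell by 0.73 with Rg3 and by 0.66 with TAM. TAB1 fell by 0.71 with Rg3 and rose by 0.60 with TAM. TAB3 fell by 1.29 with TAM and MAP3K7, the kinase TAK1, by 1.05. Without the trend 0 were higher and 0 lower with Rg3, and only MAP3K14 was called with TAM, at -0.87.

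Among the receptors, 9 genes were compared, of which 1 was higher and 1 lower with Rg3, and 1 was higher and 5 lower with TAM. Of the 5 lower with TAM, LTBR fell from 14 counts to 1 and IL1RAP from 26 to 7. Both passed the count filter in that comparison only through the control library, so that only a fall could have been called. TNFRSF1B, the second TNF receptor, had 338 counts in control, 118 with Rg3 and 153 with TAM, and both treated libraries were low. With Rg3 its log2 fold change was -1.85 (-2.16 to -1.54). With TAM it was -0.94 (-1.22 to -0.66), and the values without the trend were -1.31 and -1.27, and it was called lower in both forms. IL1RAP, the co-receptor of interleukin-1, rose by 1.10 with Rg3. TNFRSF12A, the receptor Fn14, rose by 1.14 with TAM and CD40 fell by 0.60, with 93 and 53 counts. Without the trend IL1RAP with Rg3 and TNFRSF12A with TAM were at 0.51 and 0.56, no longer called.

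Of 20 adaptors and ubiquitin ligases, 5 were higher and 6 lower in either treated library. TRAF6 (0.90) and XIAP (0.84) rose with Rg3, and CARD10 (-1.02) and TICAM1 (-0.76) fell, and none of these was called without the trend. IRAK1, a kinase of the interleukin-1 receptor complex, had 6675, 5508 and 13942 counts and rose by 1.27 with TAM (1.23 to 1.31), and by 0.87 without the trend. TRAF2 rose by 0.98 with TAM, while TRAF5 fell by 2.14 (-3.22 to -1.19), from 56 to 11 counts, and MALT1 by 1.05. Without the trend TRAF2 was at 0.45 and MALT1 at -0.11, and TRAF5 was still called at -1.68. Of 10 deubiquitinases and partners of A20, 3 were higher and 1 lower with Rg3, and 1 was higher and 1 lower with TAM. TAX1BP1, which brings A20 to its substrates, rose by 1.06 with Rg3 (0.94 to 1.17), from 840 to 2191 counts, and by 0.95 without the trend. ITCH, a ligase of the A20 complex, rose by 0.85 with Rg3 and fell by 0.90 with TAM, and was at 0.11 and -0.10 without the trend. USP11 fell by 0.66 with Rg3, and TNIP2 rose by 0.65 with TAM, neither of them called without the trend.

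Of 10 compared chemokine and cytokine targets, 8 were higher and 0 lower with TAM, with a median of 1.30, beside 14.0% and 18.4% of all genes. Without the trend the same counts and a median of 1.22 were found, beside 8.24% and 10.8% of genes. This list, too, was chosen with earlier results of these data known. With an assumed variation of 0.2 in edgeR's exact test, only 2 genes of all pathway lists were higher with TAM, and 0 with 0.4. At most 2 of these 8 calls thus held at 0.2. Among the 8, CXCL2 (17 to 38 counts), CXCL3 (12 to 27) and CCL20 (11 to 31) rest on few counts. CCL2 rose by 3.04 (2.78 to 3.31), from 135 to 964 counts, and CXCL8, which encodes interleukin-8, by 1.33 (0.59 to 2.11), from 23 to 50 counts. With Rg3, 3 were higher and 1 lower. CCL20 rose by 2.34 (1.42 to 3.41), from 11 to 70 counts, and CXCL8 by 0.85, from 23 to 52 counts, while CSF1 fell by 1.12 (-1.27 to -0.97), from 1008 to 583 counts. Without the trend CXCL8 was at -0.10 with Rg3 and no longer called, while CCL20 (1.47) and CSF1 (-0.59) were.

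Of the survival and other targets, 20 were compared for Rg3, with 1 higher and 5 lower, and 21 for TAM, with 7 higher and 3 lower. Among those 7 was SELE, which reached the filter only in the TAM library. BCL2A1, an inhibitor of apoptosis, rose by 1.06 with Rg3, from 41 to 107 counts, while PLAUR fell by 0.79 and PDLIM7 by 0.74, and none of these was called without the trend. With TAM, PTX3 rose by 1.94 (1.60 to 2.29), from 95 to 316 counts, and JUNB by 1.18, while KLF10 fell by 0.90 and RHOB by 0.82. Without the trend PTX3, KLF10 and RHOB were still called, at 1.83, -0.82 and -1.27, and JUNB was not, at 0.58.

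**Figure D5:**
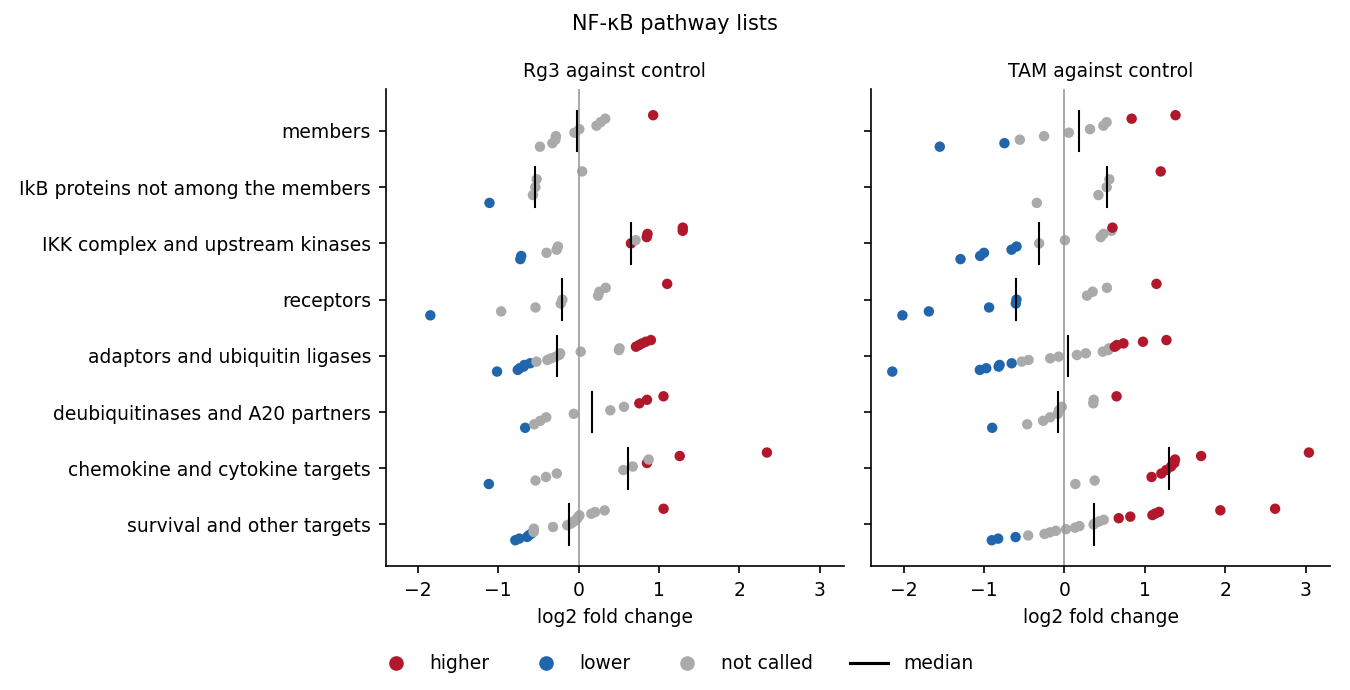
Log2 fold changes of the NF-κB genes and of 7 pathway lists for Rg3 and TAM against control, 1 point per gene, with calls in colour and the median as a bar. Chemokine and cytokine targets have a median of 1.30 with TAM, and the members spread from -1.55 to 1.38 there.

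BIRC3 had the largest change of a member against control. Among 12852 genes with at least 100 counts over the 3 libraries, those with the most similar log2 fold changes in both treated libraries were LOC105375256 (0.95 with Rg3 and -1.57 with TAM), COG3 (0.91 and -1.58) and ZNF770 (0.89 and -1.53), at distances of 0.023, 0.033 and 0.039 on the log2 scale. COG3 had 86, 202 and 25 counts in control, Rg3 and TAM. Likeness over 3 libraries rests on only 2 fold changes per gene.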

How the data were processed

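Total RNA of PANC-1 cells was sequenced on Ion Proton, aligned by the authors with TopHat and, per the labels, to GRCh38. The deposited values are the authors' raw counts per gene symbol. The counting tool, annotation and strand setting are not given in the sources used here. Every column of values was mapped to a library.

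TMM factors (edgeR 4.0.16, R 4.3.3) were 1.02 for control, 1.12 for Rg3 and 0.879 for TAM. Libraries were compared for genes reaching 10 counts in 1 of them (Python 3.11.15, SciPy 1.17.1) by the exact two-sided binomial test with Benjamini-Hochberg adjustment, Clopper-Pearson 95% intervals and fold limits of 1.5 and 0.67. For folds, a lower count was taken as 3. The study's Limma criteria need replicates. Alternatives were library totals, DESeq2 1.42.0 size factors, filters of 1 and 50 counts, the fold limits with no test, an assumed biological variation of 0.2 or 0.4 in the exact test of edgeR, and removal of a loess trend (span 0.3, statsmodels 0.14.6) on GC content and length of the longest GENCODE 29 transcript. GC content was found for 88.0% of genes compared for Rg3 and 88.5% for TAM. In that removal the test stayed that of the unadjusted reads. The binomial and trend steps were tested on simulated data. The κB consensus was searched by name in 300-base RefSeq promoter windows.

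The members and the 11 lists were chosen with earlier results of these data known. Named genes were all members, up to 2 called genes per list and direction with at least 50 counts, the 3 genes nearest in fold to the member that changed most, and paralogs or overlapping genes of members. NFKBIB, LTBR, IL1RAP with TAM, COG3's counts and the genes with few counts in the closing section were added after values were seen.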

Additional observations from a re-analysis of the deposited data

How the results depend on the processing

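No paired analysis was possible because there was 1 library per condition, and for the same reason none was left out. Each alternative changed 1 choice, over 30 log2 fold changes of members.

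With an assumed variation of 0.2 in edgeR's exact test, 0 members were higher with Rg3, 1 was higher and 1 lower with TAM, and 1 was higher and 1 lower with TAM against Rg3. Of the pathway genes, 1 was then higher and 1 lower with Rg3, 2 and 2 with TAM, and 24 and 14 with TAM against Rg3. With 0.4 these counts were 0. The share of all genes called at 0.2 or 0.4 was not computed, so that these counts have no share beside them. Under TMM and the binomial test, 43 of 91 compared pathway genes were higher and 24 lower with TAM against Rg3. The shares of all genes were there 27.0% and 31.0%. The filter of 1 count left 1 member lower with TAM. With library totals 12 pathway genes were lower with Rg3, and 1 member was higher with TAM against Rg3. With the trend removed, 1 member was higher and 4 lower with TAM, and 1 higher with TAM against Rg3. Pathway genes were then 3 higher and 5 lower with Rg3, 12 lower with TAM, and 13 higher and 11 lower with TAM against Rg3.

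Signs turned with library totals for NFKBIA with Rg3 (0.088), RELA with TAM (-0.15) and NFKB1 with TAM against Rg3 (-0.25). They turned without the trend for NFKB2 (0.33), RELB (0.37), NFKBIA (0.24) and TNFAIP2 (0.31) with Rg3, for RELA (-0.28) and RELB (-0.086) with TAM, and for NFKB2 (-0.21), RELA (-0.26), RELB (-0.44) and NFKBIE (-0.25) with TAM against Rg3. Of these, NFKB2, RELB and NFKBIE with TAM against Rg3 had been called higher under TMM, and the others had not been called. DESeq2 size factors left 29 of 30 values on their side of the threshold, and the filter of 50 counts and the fold alone left all 30. What the TMM and totals values differ by is the shift of the scaling itself. The cause of the other changes was not tested.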

Other observations

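The ligands of the pathway were nearly silent in these cells. TNF had 7 counts in control, 6 with Rg3 and 8 with TAM, LTB had 3, 3 and 5, and IL1A and IL1B had at most 2 in any library, so that differences were not detectable at this depth. TNFSF12, which encodes TWEAK, was the only ligand of 10 that was compared. It had 248, 194 and 267 counts and fell by 0.68 with Rg3 (-0.96 to -0.40), with a value of -0.08 without the trend on GC content and length, and was not called with TAM (0.31). The adhesion genes SELE and VCAM1 had few counts as well. SELE had 2, 8 and 16 counts in control, Rg3 and TAM. It reached the filter of 10 counts only in the TAM library, so that only a rise there could have been called. Its log2 fold change with TAM was 2.62 (1.12 to 6.37), against a control count taken as 3. VCAM1 had 0, 2 and 5 counts.

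Relatives of the members were compared as well. ICAM3 had 222, 158 and 292 counts and ICAM5 had 95, 54 and 77, and both fell with Rg3, by 0.82 and 1.14, while ICAM3 rose with TAM by 0.60. Neither was called without the trend, whereas ICAM1 had a positive fold change with Rg3 in both forms. Of 6 compared paralogs or namesakes of members, 1 was higher and 1 lower with Rg3, and 0 were higher and 2 lower with TAM. TNFAIP8L1 fell by 1.15 with Rg3, from 191 to 108 counts, and by 0.72 without the trend.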
